A study of Sus scrofa with 12 samples.

Results

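In porcine intestinal epithelial cells, 111 genes were lower after 6 h of deoxyshikonin and differed little from untreated cells after 24 h. They were drawn from 11366 Ensembl pig genes with a mean of at least 1 TPM (transcripts per 1000000, corrected for gene length) over all 12 libraries, out of 32518 identifiers measured. A gene was included if its treated minus control difference on the log2(TPM + 1) scale was -1.5 or lower at 6 h and lay between -0.3 and 0.3 at 24 h. These differences chose the genes, so they are given as a description and were not tested.

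RNA sequencing was done on IPEC-J2 cells, an established non-transformed line from the pig jejunum. Cells received deoxyshikonin, a naphthoquinone pigment of plant roots, at 5 µmol/L or were left untreated. Both were sampled at 6 h and at 24 h, with 3 libraries in each of the 4 groups. The labels do not say whether the libraries of a group came from separate cultures, so p-values measure only the spread between these libraries.

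The 11 epithelial markers found in the table (EPCAM, CDH1, KRT8, KRT18, KRT7, VIL1, CLDN4, CLDN7, ELF3, ESRP1 and GRHL2) all averaged at least 1 TPM. Summed, they reached 7549 to 7769 TPM in 6 h controls, 4949 to 5148 TPM in 6 h treated cells, 8096 to 8479 TPM in 24 h controls and 8310 to 8558 TPM in 24 h treated cells. KRT7 is itself one of the 111 genes. Without it the sum was 5655 to 5809.9 TPM in 6 h controls and 4281 to 4493 TPM in 6 h treated cells. Of 10 fibroblast markers, COL1A1 and COL1A2 averaged at least 1 TPM, and the summed level of all 10 was 9.56 to 10.04 TPM in 6 h controls against 5.90 to 7.06 TPM in 6 h treated cells. Among immune markers, PTPRC and CD3E stayed under 0.1 TPM in every group, while 4 averaged at least 1 TPM. CD68 stood at 0.17 TPM in 6 h controls and 2.62 TPM in 6 h treated cells, and at 0.19 and 3.88 TPM at 24 h. CD14 stood at 1.22 and 5.99 TPM at 6 h and at 1.5 and 4.49 TPM at 24 h, so both means were higher in treated cells at both times. LYZ had 45.3 and 49.4 TPM at 6 h. The identifier paired with CD79A, a B cell gene, had 274.8 and 266.7 TPM at 6 h, and whether that pairing is right was not checked. Of 5 endothelial markers, PECAM1 averaged at least 1 TPM, with 13.3 TPM in 6 h controls and 22.7 TPM in 6 h treated cells. No marker was at 0 in every library. The part of these markers in the results below was not tested. In such bulk libraries, fewer cells of a kind and less RNA per cell cannot be told apart.

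Intestinal epithelial cells form a sheet sealed by tight junctions and strengthened by keratins and desmosomes, and in culture they divide until the sheet closes. Dividing cells make nucleotides, ribosomes and membrane lipids at a high rate, under the control of growth signals and cyclins. Members of each of these systems were found among the 111 genes, and the roles used to order them below were assigned after their values were seen. Symbols were available for 91 of the 111 genes, and 54 of them were placed in a role.

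**Figure D1:**
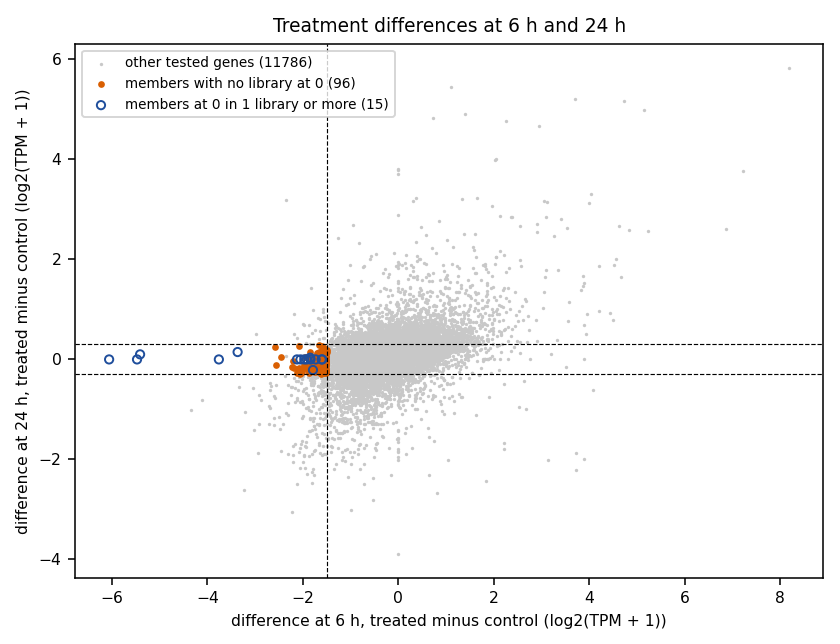
Treated minus control difference of every tested gene at 6 h (horizontal) and at 24 h (vertical), both on the log2(TPM + 1) scale, with dashed lines at the limits that chose the members. The 96 members with no library at 0 TPM lie between -2.58 and -1.5 at 6 h, and the open circles mark the 15 members listed at 0 TPM in at least 1 library.

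Expression of the 111 genes together made up 1.01% ± 0.0268 (SD, n = 3) of total TPM in the control group at 6 h and 0.294% ± 0.0254 in 6 h treated cells. At 24 h the share was 0.936% ± 0.00784 in controls and 0.936% ± 0.00868 in treated cells. The median member stood at 27.4% of its control TPM at 6 h, and the median log2 difference was -1.69 at 6 h and -0.05 at 24 h. Over all 11897 tested genes these medians were -0.20 and 0.09. In 6 h controls the members had a median of 28.9 TPM, against 16.1 TPM over all tested genes.

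In 101 of the 111 genes the 3 treated libraries lay below the 3 controls at 6 h, as did 50.6% of all tested genes. At 24 h the groups did not overlap for 36 members, 25 of them lower and 11 higher in treated cells. Over all tested genes 56.0% did not overlap at that time, 20.7% being lower and 35.4% higher. Both counts follow from the way the genes were chosen. At the edge of the choice at 6 h, AGFG2 and P4HTM (-1.503 and -1.5001) were inside, and SORBS3 and HS6ST1 (-1.498 and -1.497) were outside. At 24 h the edges ran between CAD (-0.298) and DNPH1 (-0.306), and between CCND1 (0.279) and ENSSSCG00000028092 (0.307).

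The choice was repeated without some libraries, which then served as a check. When the libraries of 1 replicate number were set aside and the same limits were applied to the other 8, 126, 87 and 151 genes were chosen. In the libraries set aside, their median difference at 6 h was -1.63, -1.92 and -1.44. A difference of -1 or lower was seen there for 111 of 126, 78 of 87 and 126 of 151 genes, against 10.9%, 14.0% and 9.22% of all genes that could be chosen. At 24 h a difference within 0.5 of 0 was seen for 122 of 126, 82 of 87 and 136 of 151, against 84.3%, 81.4% and 76.6%. Genes so chosen were thus low at 6 h in the unused libraries far more often than all genes that could be chosen. Closeness at 24 h was common among all genes. The labels do not say whether the unused libraries came from separate cultures.

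Membership depended on how libraries were scaled. With rescaling by the median of ratios, which moved the median of all genes by 0.13 at 6 h and by -0.07 at 24 h, 63 genes met the limits and 59 of them were among the 111. Quantile normalization gave 56 genes, with 52 shared. Of the members placed in roles below, the median-of-ratios choice kept 4 of 4 rRNA and tRNA genes and 5 of 9 junction genes. It kept 5 of 8 transcription regulators and 5 of 9 ligand, receptor and growth control genes. Only 1 of 6 nucleotide genes, 1 of 5 actin and scaffold genes and none of the 6 lipid and mitochondrial enzymes were kept. That rescaling moves all genes of a library by nearly the same amount, so the 111 had to stay near the limits. Their rescaled 6 h differences were all -1.36 or lower, and their 24 h differences ran from -0.38 to 0.20. Over the 96 members with no 0, treated libraries at 6 h were also less alike than the other groups. Their median coefficient of variation was 13.5%, against 3.91% in 6 h controls, 6.38% in 24 h controls and 4.96% in 24 h treated cells. By the choice these genes were low in that group, with a median of 8.3 TPM against 29.5 TPM in 6 h controls. The measure therefore does not describe these libraries over other genes. The treated 6 h library of replicate 2 was the lowest of the 3 for 78 of these 96 genes, as it was for 53.3% of all tested genes. Without that library 93 genes met the limits, 87 of them among the 111.

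Among members with no library at 0, a tight junction gene had the lowest difference at 6 h on the log2(TPM + 1) scale. CLDN6, a claudin of embryonic and early epithelia, had 347, 372 and 381 TPM in 6 h controls and 62.5, 50.7 and 70.5 TPM in 6 h treated cells. The treated mean was 16.7% of control. Its 24 h libraries had 265, 251 and 251 TPM in controls against 327, 299 and 290.5 TPM in treated cells, so every treated library then lay above every control. TJP3, a scaffold that ties claudins to the actin cortex, had 39.6, 43.2 and 40.5 TPM in 6 h controls and 7.89, 6.42 and 9.81 TPM in treated cells, or 19.6% of control. At 24 h it stood at 86.8, 87.0 and 80.4 TPM in controls against 78.8, 77.4 and 73.7 TPM in treated cells, above the 6 h controls in both groups. MPDZ, a scaffold with many PDZ domains at the same junctions, was at 32.4% of control at 6 h, with 37.3 ± 0.28 TPM (SD, n = 3) in controls and 12.1 ± 0.788 TPM in treated cells.

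Genes of the cornified envelope and the keratin network were also among the members. SCEL, which encodes sciellin, a precursor of the envelope, had 52.2, 53.1 and 50.5 TPM in 6 h controls and 14.6, 12.3 and 16.3 TPM in treated cells, and 87.3, 94.5 and 88.3 against 84.1, 91.5 and 83.5 TPM at 24 h. PPL and EVPL encode periplakin and envoplakin, partner proteins that link keratins to the membrane. PPL was at 29.3% and EVPL at 31.5% of control at 6 h. PPL had 84.9 ± 1.91 TPM (SD, n = 3) in 6 h controls, 24.9 ± 3.49 in 6 h treated cells, 137 ± 5.90 in 24 h controls and 115 ± 3.23 in 24 h treated cells. EVPL had 74.3 ± 2.79, 23.4 ± 2.74, 122 ± 3.80 and 104 ± 2.75 TPM in the same order. For both genes the 24 h treated libraries lay below the 24 h controls but above the 6 h controls.

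KRT7, a keratin of simple epithelia and the most abundant of the 111 genes, had 1959, 1893 and 1796 TPM in 6 h controls and 655, 633 and 694 TPM in treated cells. At 24 h the libraries overlapped, with 1940.0, 1900.3 and 2069 TPM in controls against 1989.5, 2014 and 2073 TPM in treated cells. Its partners in the marker list stood closer to control at 6 h. KRT8 had 2166 TPM in controls and 1193 TPM in treated cells, and KRT18 had 1693 and 816 TPM. In a list of desmosome and cornified envelope genes drawn up after values were seen, 4 of 15 tested genes (SCEL, PPL, EVPL and KRT7) were members. Of the other 11, 7 were lower and 0 higher at 6 h (limma, adjusted p under 0.05), where 48.7% and 26.6% of all tested genes were, and the lowest was TGM1 at -1.18. TNS4, a focal adhesion protein, was at 17.2% of control, and MAL2, needed for transport to the apical membrane, was at 31.1%.

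Most other junction genes differed less at 6 h. Of 32 tested genes of a list of epithelial junction and polarity genes, TJP3 was the single member. Among the other 31, 18 were lower and 6 higher at 6 h (limma, adjusted p under 0.05), against the same 48.7% and 26.6%. At 24 h 4 were lower and 13 higher, against 18.1% and 32.2%. These splits moved with the scaling. With libraries rescaled by the median of ratios, 17 were lower and 11 higher at 6 h, and 6 lower and 10 higher at 24 h, where the background was 41.0% and 34.3% at 6 h and 24.7% and 24.3% at 24 h. CLDN1 (-1.69 at 6 h, SE 0.07, limma adjusted p = 4.04e-09) fell further than any other gene of this list except TJP3. CLDN4 and PARD6B went the other way and rose by 1.01 and 1.54.

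**Figure D2:**
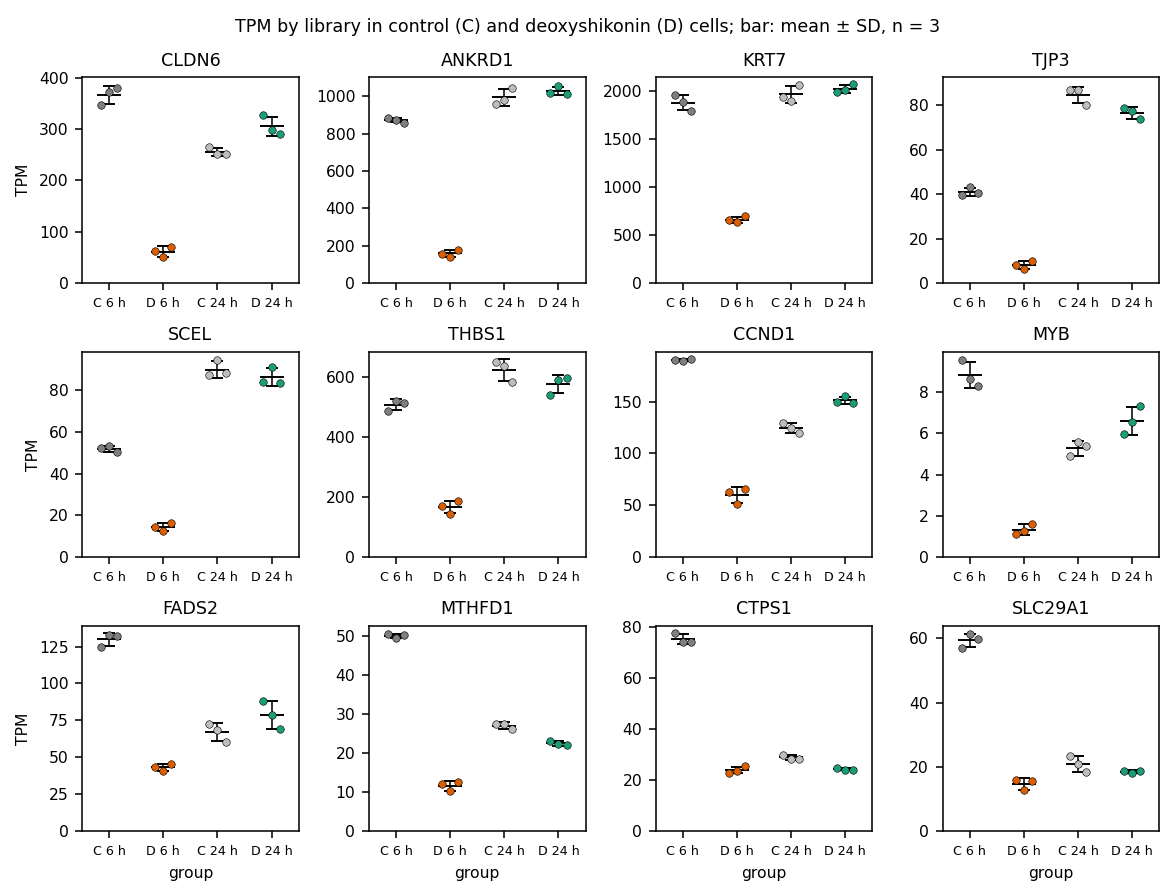
TPM of 12 members in each library (points) with the mean and SD of 3 libraries (bars), for control (C) and deoxyshikonin (D) cells at 6 h and 24 h, each vertical axis starting at 0. In all 12 genes the 6 h treated libraries lie below the 6 h controls, while the 24 h controls lie above the 6 h controls for TJP3 and SCEL and far below them for CTPS1 and SLC29A1.

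Among regulators of transcription, ANKRD1 had the lowest difference at 6 h on the log2(TPM + 1) scale. It encodes an ankyrin repeat protein and is a known target of the growth regulator YAP. It had 882, 875 and 859 TPM in 6 h controls and 154, 141 and 178 TPM in treated cells, or 18.1% of control. At 24 h its libraries overlapped at 957, 979.7 and 1045 TPM in controls against 1020.1, 1055 and 1014 TPM in treated cells. Of the other 21 tested genes of a list of YAP targets and Hippo pathway genes, 11 were lower and 5 higher at 6 h (limma, adjusted p under 0.05), near the 48.7% and 26.6% of all tested genes. CCN2, another YAP target, rose by 0.92 at 6 h, and CCN1 had a difference of -0.16 that did not pass the test.

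MYB, a factor of proliferating progenitor cells, had 9.55, 8.64 and 8.30 TPM in 6 h controls and 1.13, 1.25 and 1.62 TPM in treated cells, or 15.1% of control. At 24 h it stood at 4.89, 5.60 and 5.39 TPM in controls against 5.95, 6.58 and 7.32 TPM in treated cells, all treated libraries being higher. KLF13, a zinc finger factor that binds GC-rich promoters, had 20.8 ± 0.983 TPM (SD, n = 3) in 6 h controls, 4.64 ± 0.919 in treated cells, and 20.9 ± 2.12 and 21.7 ± 1.09 at 24 h. The homeobox gene IRX3 was at 34.4% of control, the zinc finger genes SALL2 and KLF16 at 23.7% and 31.1%, and the thyroid hormone receptor THRA at 29.0%. PPARGC1B, a coactivator of nuclear receptors, was at 27.5%. None of the 27 tested genes in a list of immediate early and other short-lived transcription factors was a member. Of those 27, 10 were lower and 12 higher at 6 h, against 48.7% and 26.6% of all tested genes.

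Ligands and growth control genes came next. CCND1, the cyclin that carries growth signals into the cell cycle, had 190.1, 189 and 191 TPM in 6 h controls and 62.7, 51.1 and 65.5 TPM in treated cells. By 24 h its levels were 129, 125 and 119.8 TPM in controls against 149.6, 155 and 149 TPM in treated cells, which put all treated libraries higher. It was the single member among 32 tested genes of a G1/S and DNA replication list. Of the other 31 genes, 27 were lower at 6 h and 21 at 24 h (limma, adjusted p under 0.05), where 48.7% and 18.1% of all tested genes were. The other D-type cyclins had like differences. CCND2 fell by 1.29 and CCND3 by 1.19 at 6 h, with 0.25 and 0.22 at 24 h, of which only that of CCND2 passed the test. The replication licensing genes MCM2, MCM3, MCM4 and MCM5 fell by 2.02 to 2.70 at 6 h and were still lower by 0.92 to 1.30 at 24 h. None of 40 tested mitosis genes was a member, and all 40 were lower at 6 h and at 24 h. After median-of-ratios rescaling 39 of them passed at 6 h.

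NOG, the secreted BMP antagonist noggin, had 8.74, 8.70 and 8.81 TPM in 6 h controls and 1.39, 1.81 and 1.76 TPM in treated cells, or 18.9% of control. No treated library reached a control, whereas the 24 h libraries overlapped, at 5.15, 5.41 and 7.46 TPM in controls against 5.03, 5.71 and 4.43 TPM in treated cells. In the BMP and TGF-beta list, 10 of the other 21 tested genes were lower and 6 higher at 6 h, near the 48.7% and 26.6% of all tested genes. The BMP target ID1 fell by 2.19 at 6 h and was higher by 0.52 at 24 h. It encodes an inhibitor of helix-loop-helix factors, and its relatives ID2, ID3 and ID4 fell by 1.08, 1.21 and 1.24 at 6 h.

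WNT7A, a secreted Wnt ligand, had 18.6, 19.8 and 18.5 TPM in 6 h controls and 5.75, 4.96 and 5.63 TPM in treated cells, and 15.5, 14.8 and 13.5 against 14.7, 14.9 and 13.8 TPM at 24 h. The groups were apart at 6 h and overlapped at 24 h. DACT1, which acts on the Wnt mediator dishevelled, was at 20.4% of control at 6 h. Of the other 22 tested genes of a Wnt list, 13 were lower and 4 higher at 6 h, against 48.7% and 26.6% of all tested genes. After median-of-ratios rescaling 9 were lower and 4 higher, against 41.0% and 34.3%. THBS1, the matrix protein thrombospondin, had 485, 520.2 and 513 TPM in 6 h controls and 171, 143 and 185 TPM in treated cells, with overlapping libraries at 24 h (622 ± 35.7 and 575 ± 30.4 TPM, SD, n = 3). PHLDA1, which is induced by growth factor signalling, was at 34.1% of control. In the matrix and integrin list that holds THBS1, 17 of the other 25 tested genes were lower and 2 higher at 6 h. In the EGFR and MAP kinase feedback list that holds PHLDA1, 11 of the other 26 were lower and 9 higher. The shares over all tested genes were the same 48.7% and 26.6%. The ephrin EFNA3 was at 27.9%, the semaphorin receptor PLXND1 at 30.9% and PIK3R2, a regulatory subunit of PI 3-kinase, at 25.4%.

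Actin and membrane scaffold genes ranged from 16.2% to 33.2% of control at 6 h. EHD2, which sits at the neck of caveolae, had 76.2, 78.1 and 75.1 TPM in 6 h controls and 14.1, 8.60 and 14.4 TPM in treated cells. Its 24 h controls were widely spread, at 89.0, 78.1 and 51.8 TPM, and enclosed the treated libraries at 74.5, 67.4 and 57.0 TPM. TPM1, which encodes a tropomyosin that coats actin filaments, had 121 ± 1.91 TPM (SD, n = 3) in 6 h controls, 39.3 ± 5.87 in 6 h treated cells, 166 ± 11.3 in 24 h controls and 169 ± 4.92 in 24 h treated cells. LIMA1, an actin bundling protein, and IQGAP2 were at 33.2% and 32.5%, and the actin-binding ENC1 at 27.3%.

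Enzymes that make or carry nucleotides formed a further group. CAD, which carries out the first steps of pyrimidine synthesis, had 34.1, 34.8 and 34.8 TPM in 6 h controls and 8.03, 6.08 and 8.72 TPM in treated cells, or 22.0% of control. By 24 h CAD was at 31, 30.2 and 22.8 TPM in controls against 23.4, 22.5 and 21.4 TPM in treated cells. MTHFD1, which interconverts the folate carriers of single carbons, had 50.5, 49.5 and 50.4 TPM in 6 h controls and 12.1, 10.3 and 12.6 TPM in treated cells. Its 24 h levels were 27.5, 27.6 and 26.2 TPM in controls against 23.1, 22.4 and 22.0 TPM in treated cells, both well below the 6 h controls.

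CTPS1, which makes CTP from UTP, had 77.5, 73.9 and 74.1 TPM in 6 h controls and 22.9, 23.5 and 25.4 TPM in treated cells. Its 24 h values were 29.8, 28.4 and 28.3 TPM in controls against 24.6, 24.0 and 24.0 TPM in treated cells. The treated mean thus differed by 0.02 on the log2 scale between the times, while all 24 h controls lay far below the 6 h controls. SLC29A1, a nucleoside transporter, had a like course: 57.2, 61.2 and 59.9 TPM in 6 h controls, 16, 12.7 and 15.5 TPM in 6 h treated cells, 23.5, 21.0 and 18.6 TPM in 24 h controls and 18.6, 18.1 and 18.9 TPM in 24 h treated cells. ATIC, which closes the purine ring, was at 30.0% of control at 6 h, and TK1, the thymidine kinase of dividing cells, at 32.0%. Other enzymes of these routes, listed after values were seen, did not all share the difference. UMPS had a log2 difference of -0.21 at 6 h, GART -0.70, PAICS -0.82 and IMPDH1 -1.18, while PPAT, the first enzyme of purine synthesis, stood at 1.12 and the mitochondrial MTHFD2 at 0.89.

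Of the members that modify ribosomal and transfer RNA, NOP2 stood out. NOP2, an rRNA methyltransferase, had 10.1, 13.3 and 11.8 TPM in 6 h controls and 0.22, 0.21 and 0.26 TPM in treated cells. At 24 h NOP2 was at 0.17, 0 and 0.15 TPM in controls against 0.36, 0.15 and 0.17 TPM in treated cells, so it was near 0 in all groups but the 6 h controls. RRP8, another rRNA methyltransferase, had 16.8 ± 0.86 TPM (SD, n = 3) in 6 h controls, 4.08 ± 0.941 in treated cells, and 7.30 ± 0.294 and 7.13 ± 0.525 at 24 h. PUSL1, of the pseudouridine synthase family, was at 28.6% of control at 6 h. ELAC2, which trims the ends of transfer RNA, was at 30.1%.

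Lipid and mitochondrial enzymes lay in a narrow range, from 30.4% to 34.1% of control at 6 h. FADS1 and FADS2, desaturases that make polyunsaturated fatty acids, are next to each other in the RefSeq annotation of assembly Sscrofa11.1. FADS1 had 90.6, 96.2 and 90.3 TPM in 6 h controls and 31.8, 26.8 and 30.7 TPM in treated cells. FADS2 had 125, 133 and 132 TPM in 6 h controls and 43.2, 41.0 and 45.3 TPM in treated cells, then 72.5, 68.6 and 60.7 against 88.4, 78.5 and 69.4 TPM at 24 h. The 24 h values of FADS2 overlapped and lay between the 6 h controls and the 6 h treated cells. Of the other 28 tested genes of a cholesterol and lipid synthesis list, 22 were lower and 3 higher at 6 h, and 10 lower and 4 higher at 24 h (limma, adjusted p under 0.05). Over all tested genes 48.7% were lower and 26.6% higher at 6 h, and 18.1% and 32.2% at 24 h. The sterol enzyme LSS and the fatty acid synthase FASN fell further than the desaturases at 6 h, by 1.80 and 1.79, and their 24 h differences of -0.31 and -0.33 were just beyond the limit. ACSS2, which makes acetyl-CoA from acetate, was at 31.6% of control, and EHHADH, of peroxisomal fatty acid oxidation, at 32.0%.

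The 50 members outside these roles with no library at 0 ranged from 11.9% to 34.9% of control at 6 h, with a median of 27.4%. BCAS1 was at 18.3% of control at 6 h and FAAP20, of the Fanconi anaemia DNA repair complex, at 15.7%. UBE3D was at 19.1% and SSBP4 at 19.5%. The sialyltransferase gene ST6GAL1 was at 19.2% and HNMT, which inactivates histamine, at 19.5%. ZNF467, SCARF2 and VSNL1 were at 21.3%, 22.6% and 24.2%. RANBP1, a partner of the nuclear transport GTPase Ran, had 514, 432 and 405 TPM in 6 h controls and 119, 113 and 139 TPM in treated cells. MCRIP2 was at 26.9% and the ubiquitin ligase gene MARCHF8 at 33.6%. Most of the other 30 tested genes of a ubiquitin ligase list went the other way at 6 h. Of them 4 were lower and 20 higher (limma, adjusted p under 0.05), against 48.7% and 26.6% of all tested genes. ENSSSCG00000008115, which has no symbol, was the second most abundant, with 1204, 1223 and 1161 TPM in 6 h controls and 422, 389.8 and 435 TPM in treated cells.

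**Figure D3:**
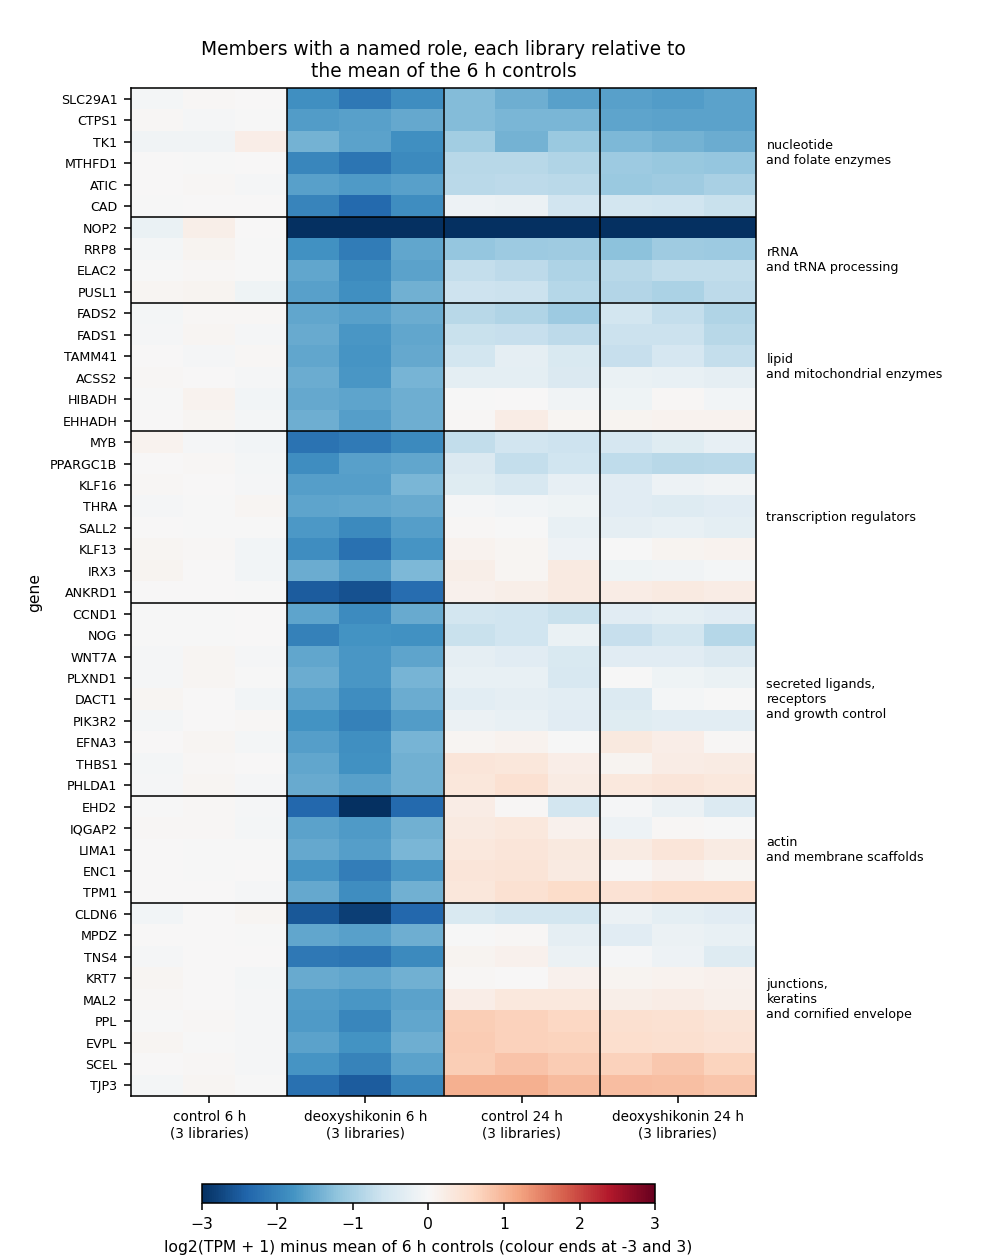
Log2(TPM + 1) of 47 members with a named role in each of the 12 libraries, relative to the mean of the 3 control libraries at 6 h, with genes in rows grouped by role and sorted by their change in untreated cells. All 6 h treated libraries are blue (lower). At 24 h control and treated libraries are both blue for the nucleotide enzymes and both red (higher) for SCEL, PPL, EVPL and TJP3, while IRX3, EHD2 and IQGAP2 have 24 h libraries on both sides of the 6 h control mean.

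For 15 of the 111 genes the name of the group does not describe the data, because they were listed at 0 TPM in some libraries. It also describes poorly 7 other genes, named below, whose treated level changed by under 0.5 between the times while their controls fell. That limit was set after values were seen. Some members above it also had controls that fell further than treated cells rose, among them RRP8 (treated change 0.69, control change -1.10) and MCRIP2 (0.73 and -0.96). Of the 15 genes, 13 moved between 0 and at least 20 TPM from one library to another. In 11 all 6 libraries at 24 h were at 0, which makes their 24 h difference exactly 0. All 7 members named as small nucleolar RNAs, short guide RNAs for rRNA modification, were in this class. SNORA61 stood at 49.2, 45.5 and 36.7 TPM in untreated 6 h libraries, and the other 9 libraries list it at 0. SNORD97 had 37.1, 34.4 and 56.1 TPM in untreated 6 h libraries and 0 in each treated one, then 34.3, 0 and 0 TPM in controls against 42.6, 0 and 0 TPM in treated cells at 24 h. SNORA8 had 73.7, 65.6 and 0 TPM in 6 h controls and 69.4, 0 and 0 TPM in treated cells, which overlap.

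SNORA2C was above 0 in 2 control libraries at 6 h, and 8 members, among them SNORA19, SNORA29 and SNORA44, were above 0 in only 1 of the 3. The 10 members whose groups overlapped at 6 h all had such zeros. Whether such a 0 is absence or a failed estimate cannot be told from TPM. Without the 15 genes, 96 members remained, from -2.58 to -1.5 at 6 h, with a median at 28.1% of control TPM.

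Untreated cells at 24 h were then compared with those at 6 h, a contrast the choice of genes did not use, though it shares their control libraries. Of the 111 genes, 25 rose and 48 fell between these times (limma, Benjamini-Hochberg adjusted p under 0.05), and 38 did not pass. Over all tested genes 22.2% rose and 34.2% fell, so the share of members that rose was near the background and the share that fell (43.2%) was above it. Genes with high 6 h controls were favoured by the choice, which by itself tilts this comparison towards falls. The median log2 change was -0.32 over the members and -0.07 over all tested genes. After median-of-ratios rescaling 30 members rose and 43 fell, where 30.3% and 26.2% of all tested genes did. Among the 96 members with no 0, 25 rose and 43 fell.

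The counts by role were as follows. RRP8, ELAC2 and PUSL1 fell, as did 5 of 6 nucleotide genes, and none of these genes rose. Over all tested genes 34.2% fell and 22.2% rose, and the roles were formed after values were seen. Among members that passed the test, NOP2, SNORA61, SNORA2C and ENSSSCG00000029549 had the lowest values. They met the limits only through high 6 h controls, so their direction was fixed by the choice and is not read as a result. Among members with no 0 the largest falls were in SLC29A1 (-1.46 on the log2 scale, SE 0.09, limma adjusted p = 3.28e-07) and CTPS1 (-1.35, SE 0.05, limma adjusted p = 6.47e-09). All 3 later libraries were below all 3 earlier ones for both genes. Between the times treated cells changed by only 0.32 in SLC29A1, 0.02 in CTPS1 and 0.19 in TK1. With the limits of the choice, this left the controls of these genes no direction but down. Their falls, counted among the nucleotide genes, are therefore not read as a result either. The same limits fixed the direction of RRP8, ELAC2, PUSL1, ATIC and MTHFD1, whose treated cells changed by 0.61 to 0.92. No fall among the nucleotide or the rRNA and tRNA genes is thus read as a result. CAD, at -0.30, did not pass (limma adjusted p = 0.0563). Of the lipid and mitochondrial enzymes 4 of 6 fell, against the same 34.2% of all tested genes, FADS2 by 0.94 and FADS1 by 0.71. Treated cells changed by 0.85 in FADS2, 0.91 in FADS1 and 0.98 in TAMM41, so the direction of these falls was fixed in the same way. CCND1 fell by 0.61, MYB by 0.64, NOG by 0.49 and WNT7A by 0.36. These 4 passed under both scalings, but of the 9 ligand, receptor and growth control genes 5 fell as reported and 3 after median-of-ratios rescaling. With a treated change of 1.19, the direction of NOG was fixed by the limits too.

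Of the 9 junction, keratin and envelope genes 5 rose, where 22.2% of all tested genes did. CLDN6 alone fell, by 0.52, where 34.2% of all tested genes fell. These counts, in roles formed after values were seen, were not tested. TJP3 rose by 1.03 (SE 0.11, limma adjusted p = 1.18e-05), SCEL by 0.78 (SE 0.08, limma adjusted p = 1.26e-05), EVPL by 0.70 and PPL by 0.69. For all 4 the 24 h controls lay above the 6 h controls in 3 of 3 libraries. BCAS1 rose by 0.78, and the gene with the largest rise, ENSSSCG00000028501 (1.27, limma adjusted p = 2.61e-07), has no symbol. ENSSSCG00000017159, also without a symbol, rose by 0.71. Of the 5 actin and scaffold genes 4 rose, against the same 22.2% of all tested genes, TPM1 by 0.45 and ENC1 by 0.34. KRT7 (0.06), MPDZ (-0.09) and TNS4 (0.01) did not pass. KRT7 passed as a rise after median-of-ratios rescaling (0.17, limma adjusted p = 0.00998).

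The level at which control and treated cells lay close at 24 h differed between genes. In treated cells the log2 change from 6 h to 24 h was at least 1 for 74 of the 96 members with no 0, between 0.5 and 1 for 15, and under 0.5 for 7. These values follow in part from the choice of genes and were not tested. In 94 of the 96 all 3 treated libraries were higher at 24 h than at 6 h, as in 47.3% of all tested genes. The 7 genes with a change under 0.5 were CTPS1 (0.02), TK1 (0.19), SLC29A1 (0.32), RANBP1 (0.38), SURF2 (0.47) and the unnamed ENSSSCG00000032831 (0.40) and ENSSSCG00000045695 (0.50), singled out after their values were seen. In untreated cells all 7 fell, by 0.79 to 1.46. The limits of the choice and a treated change under 0.5 together leave no other direction, so these falls are not read as a result. In CTPS1, SURF2 and ENSSSCG00000045695 every treated library was still below every control at 24 h, at 83.9%, 83.9% and 76.1% of the control mean. At the other end were TJP3, with a treated change of 3.12, BCAS1 with 2.79, ANKRD1 with 2.70 and SCEL with 2.51.

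**Figure D4:**
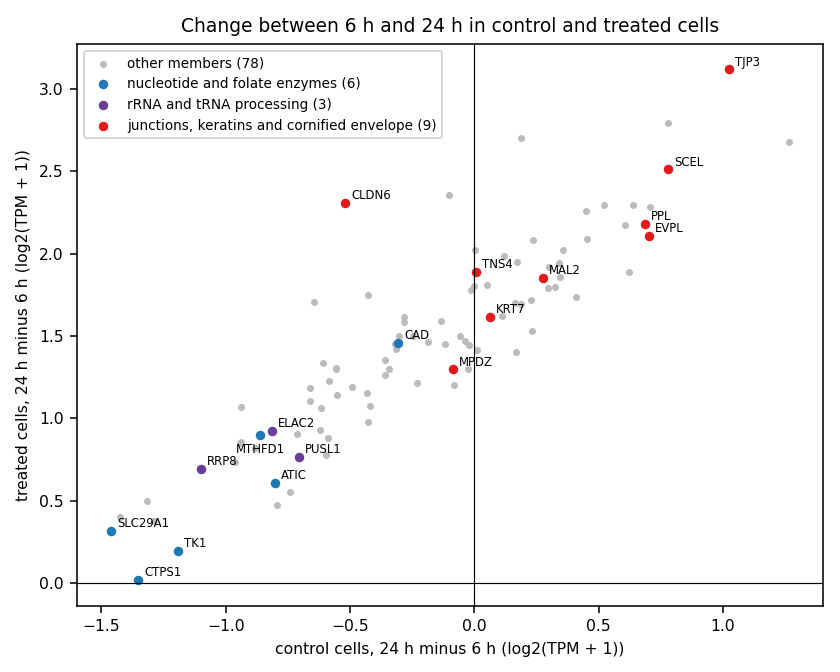
Change from 6 h to 24 h on the log2(TPM + 1) scale in control cells (horizontal) and treated cells (vertical) for the 96 members with no library at 0, with 3 roles coloured. Nucleotide and rRNA or tRNA genes lie to the left, where controls were lower at 24 h, with treated differences of 0.02 to 1.46, and most junction, keratin and envelope genes lie to the right, up to 3.12 in treated cells.

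The members were set beside genes that met the same limit at 6 h and not the one at 24 h. Of 325 genes with a 6 h difference of -1.5 or lower, 111 were members, 192 stayed lower at 24 h (below -0.3) and 22 were higher (above 0.3). In untreated cells 113 of the 192 genes that stayed lower fell and 44 rose between 6 h and 24 h, or 58.9% and 22.9%, with a median of -0.52. Of the 22 genes that were higher, 6 fell and 7 rose, with a median of -0.11. The members lay between the other two classes in the share that fell (43.2%) and in their median (-0.32). In the share that rose (22.5%) they were not between them, as it was 31.8% in the genes that were higher. The classes were split on 24 h differences, which use the same 24 h controls as this contrast. These differences between classes were not tested. Median TPM in 6 h controls was 28.9 in members, 23.3 in genes that stayed lower and 27.1 in genes that were higher.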

How the data were processed

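RNA-seq libraries of 12 IPEC-J2 samples were analysed. Per the labels' protocols, RNA was extracted with TRIzol, freed of genomic DNA, quality checked and made into libraries by standard Illumina procedures. The submitters' processing notes name fastp, HISAT and RSEM without versions or roles. The genome build and annotation are not given in the sources used here, so no coordinates or sequences are reported. The authors deposited 1 table of TPM per gene and library, each library summing to 1000000 within rounding. TPM keeps no read depth, so no counting interval could be given, and every value is relative to the rest of its library.

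Symbols came from a table pairing Ensembl identifiers with names, which covered 15029 of the 32518 identifiers. From the deposited TPM, log2(TPM + 1) was computed, which shrinks changes of weakly expressed genes. All 11897 features with a mean of at least 1 TPM, assembled loci included, entered 1 limma fit (version 3.58.1, R 4.3.3, eBayes with a trend, 8 residual degrees of freedom) over the 4 groups, with Benjamini-Hochberg adjustment over all tested genes and a threshold of 0.05. The fit was tested on simulated data. Members, gene lists and tests were chosen with earlier results of these data known.

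Genes were named by rule: the 25 lowest 6 h differences among members with a symbol, a mean of at least 5 TPM and no overlap at 6 h; members of the gene lists; the 5 largest rises and falls in untreated cells; the 3 most abundant; and genes at the limits. Roles, their other members, the further enzyme lists and the genes named for comparison were chosen after values were seen. Alternatives were other scalings, a pseudocount of 0.1, other filters, a replicate block, other fits and leaving out libraries. Those without genes listed at 0 were added after seeing the data.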

Additional observations from a re-analysis of the deposited data

How the results depend on the processing

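The number of genes that met the limits moved by more than 1.5 times with the scaling and the pseudocount: it was 111 as reported, 63 after median-of-ratios rescaling, 56 after quantile normalization and 215 with a pseudocount of 0.1 (105 shared). It was 112 with no filter, 98 with a minimum mean of 5 TPM, and 98 or 96 without genes at 0. Leaving out 1 library gave 93 to 140 genes, and leaving out a replicate number 87 to 151. Changes in untreated cells were called for 73 members (25 higher, 48 lower), and for 14 (2 higher, 12 lower) with an added minimum log2 change of 1. Other scalings, filters and fits without that minimum gave 62 to 76, leaving out 1 library 65 to 77 (21 to 26 higher, 43 to 52 lower). Repeats of the 73 single calls, not counting that minimum or genes a filter removed, passed 1525 times and missed the threshold 68 times, with no change of direction. With the replicate number as a block 73 were called, 71 of them the same genes. Deviations of same-numbered control libraries at 6 h and 24 h correlated at -0.05 on average, so the numbers were not taken as a pairing. TPM carry no depth, so precision at low levels cannot be stated.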
